A study of Homo sapiens with 8 samples.

Results

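The genes described here encode 9 enzymes that make or interconvert asparagine, aspartate, proline and glutamine, namely ASNS, ASS1, GOT1, GOT2, PYCR1, ALDH18A1, CPS1, GPT2 and GLUL, out of 20263 genes in the expression table. They were chosen by their role and with their levels under treatment already known, so the differences between treated and control cells in these genes are given as a description, without a test. RNA was sequenced from PANC-1, an established human cell line derived from a pancreatic ductal carcinoma. Cells received 10 μM Eupalinolide B (EB), a compound isolated from Eupatorium lindleyanum, or the vehicle DMSO alone for 24 h, with 4 libraries per group. The methods state 4 biological replicates per group but also mention sequencing in triplicates, whereas the table holds 4 libraries per group. The labels name no genetic change or other agent in either group, and the comparison covers a single cell line, dose and time.

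Asparagine synthetase (ASNS) moves the amide nitrogen of glutamine onto aspartate. GOT1 in the cytosol and GOT2 in mitochondria are aminotransferases that can make or use up aspartate, and both serve the malate-aspartate shuttle. Proline is made from glutamate in mitochondria, with ALDH18A1 at the entry and PYCR1 at the last step. CPS1 and ASS1 belong to the urea cycle, where CPS1 fixes ammonia and ASS1 consumes aspartate. GPT2 passes nitrogen between alanine and glutamate, and glutamine synthetase (GLUL) makes glutamine from glutamate and ammonia. Pancreatic ductal carcinoma cells are known for a heavy use of glutamine in which GOT1 takes part, and ASNS is a textbook target of the transcription factor ATF4, which binds C/EBP-ATF response elements when amino acids run short.

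Promoter windows were read to see which of the 9 genes carry the core of that element. RefSeq windows on GRCh38.p14, from 250 bases before to 50 bases after a transcript start, were at hand for 7 of the genes (12 windows) and not for PYCR1 and GPT2. On both strands the windows were searched for TGATGNAA (the core of the C/EBP-ATF response element), TGACGTCA (the cAMP response element), TGACNNNGC (the core of the antioxidant response element) and CACGTG (the E-box). The C/EBP-ATF core was found in ASNS and in GOT1, and in 3.62% of all 35116 windows. In ASNS it starts 68 bases before the RefSeq transcript start at 97872408 and reads along the gene. The other ASNS window, with its start at 97872165, holds no match. The gene annotation used for positions below begins upstream of both starts, at 97872542. In GOT1 the core starts 198 bases before the start and lies on the opposite strand, so that the letters shown are its reverse complement. Capitals mark the element in these stretches of the gene's own strand, at chr7:97872458-97872487 (minus strand) for ASNS and chr10:99430804-99430833 (minus strand) for GOT1.
ASNS: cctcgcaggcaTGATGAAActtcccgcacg
GOT1: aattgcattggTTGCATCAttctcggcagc

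The E-box was found in 3 of the 7 genes, ASS1, ALDH18A1 and an internal start of CPS1, and in 7.26% of all windows. It is shown for ASS1 and ALDH18A1. Whether any of these elements goes with the direction of change under EB was not tested, and PYCR1 and GPT2 had no window. The stretches lie at chr9:130444879-130444906 (plus strand) for ASS1 and chr10:95656831-95656858 (minus strand) for ALDH18A1, with the E-box in capitals.
ASS1: cgcgtccccgcCACGTGtccccggtcac
ALDH18A1: ggctggcccgcCACGTGgagcgctggct

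The antioxidant response core stood in GOT2 alone among the 7 genes (13.3% of all windows), and the cAMP response element in none of them (1.85% of all windows). A match in these letters is a description of the sequence and no evidence of binding. ATF4 itself rose from 218.3 ± 38.6 TPM (SD, n = 4) with DMSO to 465 ± 50.8 (SD, n = 4) with EB, which is 1.10 on the log2 scale (limma, adjusted p = 0.000844, standard error 0.16).

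Levels are in TPM, which express a gene's reads, divided by transcript length, relative to the whole library. TPM allow genes to be compared with each other, but they are shares, the read depth behind them is unknown, and fewer cells with a transcript cannot be told apart from less transcript per cell. The 13 mitochondrially encoded genes took 17% to 39% of the TPM in the DMSO libraries and 11.6% to 20.3% in the EB libraries. In each group the highest share was that of replicate 4. All 9 genes had their lowest DMSO level in DMSO replicate 4, and 7 of the 9 had their lowest EB level in EB replicate 4. With TPM rescaled to nuclear genes, DMSO replicate 4 was the lowest DMSO library for 4 of the 9. Keratins of simple epithelia were abundant, and the epithelial and ductal list summed to 1145 to 1613 TPM with DMSO and 3267 to 3654 with EB, with 5 of its 9 markers at 1 TPM or more in at least 4 libraries. KRT8, KRT18 and KRT19 were higher in all EB libraries, whereas the other expressed markers were lower in all of them, SOX9 at 128 to 172 TPM with DMSO and 43.9 to 72.1 with EB, and MUC1 at 15.3 to 20.2 and 2.34 to 5.61 TPM. KRT7, EPCAM and CDH1 were below 1 TPM in every library and CFTR was listed at 0. PRSS1, INS, PTPRC and DCN, each 1 marker of the acinar, endocrine, leukocyte and fibroblast lists, were listed at 0 throughout. The hepatocyte list, relevant for the liver enzyme CPS1, summed to 3.71 to 4.85 TPM with DMSO and 1.03 to 2.16 with EB, most of it SERPINA1, while TTR, CYP3A4 and OTC were listed at 0. The fibroblast list summed to 64 to 91.8 and 38.8 to 50.5 TPM, with 2 of its 6 markers at 1 TPM or more in at least 4 libraries. Most of it was COL1A2, at 62.0 to 90.0 TPM with DMSO and 37.7 to 49.5 with EB. COL1A1 was the other, at 1.66 to 2.17 TPM with DMSO. The acinar and endocrine lists reached at most 0.033 and 0.051 TPM, the leukocyte list 1.37 (from CD14) and the endothelial list 0.305. The part of these marker differences in the results was not tested.

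With DMSO, GOT2 was by far the most abundant of the 9 transcripts and CPS1 the least. GOT2 averaged 265 ± 31.8 TPM (SD, n = 4), which was 47.1% of the summed TPM of the 9 genes, and its lowest library lay above the highest of GOT1. GOT1 (70.9 TPM), ALDH18A1 (66.2 TPM) and PYCR1 (52.5 TPM) came next with overlapping ranges. ASNS held only the fifth place with 39.2 TPM, and its range touched that of PYCR1, with ASNS below PYCR1 in all 4 libraries. ASS1, GPT2 and GLUL followed at 25.7, 20.8 and 15.1 TPM with ranges that overlapped from one to the next, and CPS1 closed the order at 8.59 TPM, overlapping GLUL. With EB the order was GOT2, ASNS, GOT1, PYCR1, ALDH18A1, GPT2, ASS1, GLUL and CPS1. The ranges of GOT2 and ASNS overlapped, as did those of GOT1 and PYCR1 and of ASS1 and GLUL, whereas the other neighbours in this order lay apart. ASNS made up 6.95% ± 0.73 (SD, n = 4) of the summed TPM of the 9 genes with DMSO and 27.8% ± 1.57 (SD, n = 4) with EB.

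**Figure D1:**
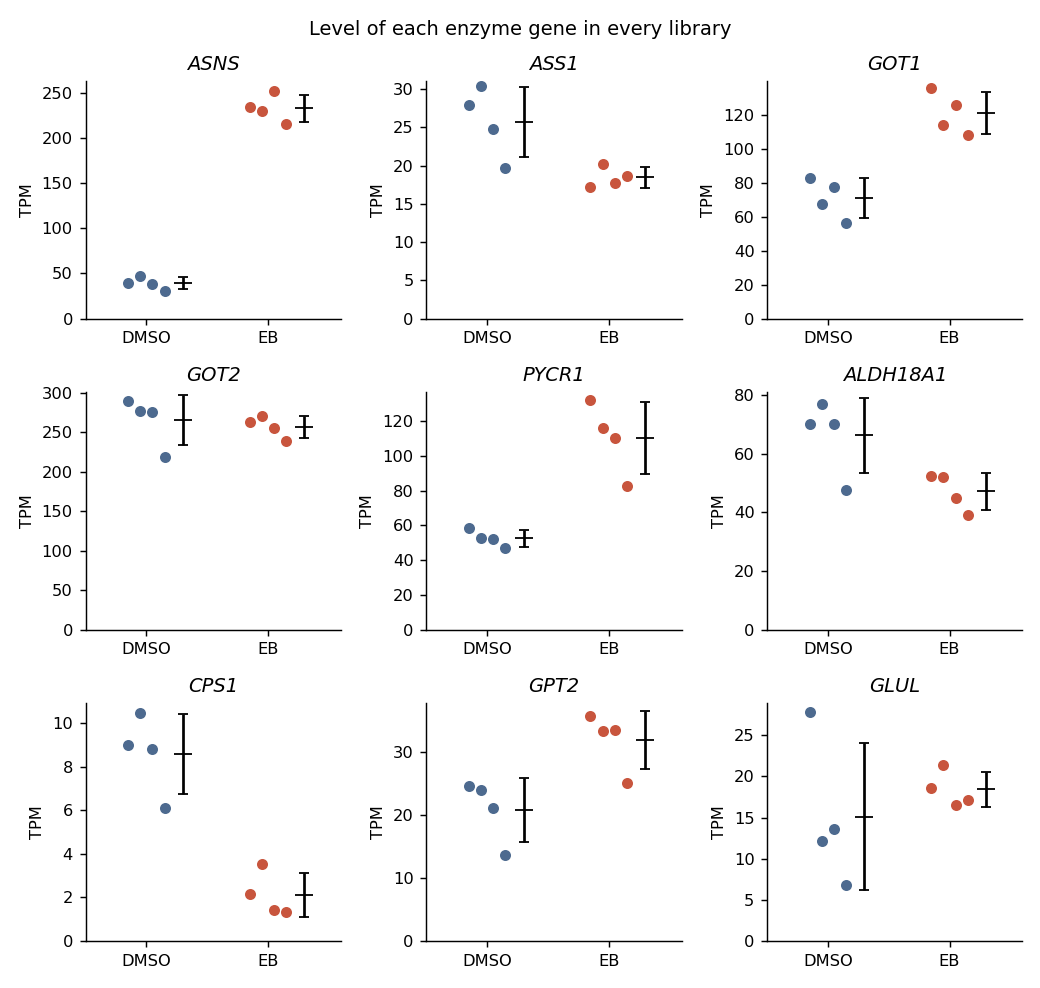
TPM (vertical axes, from 0) of the 9 enzyme genes in each of the 4 DMSO libraries (blue) and 4 EB libraries (red), with the mean and SD as a black bar beside the points. The EB points lie above all DMSO points for ASNS, GOT1, PYCR1 and GPT2 and below all of them for CPS1. For the other 4 genes the ranges of the groups overlap.

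Of the 9 genes, 4 had all EB libraries above all DMSO libraries, a pattern seen in 16.6% of the 11725 genes tested, and 1 had all EB libraries below all DMSO libraries, seen in 20.3%. These shares are printed for reference only, since the genes were picked with this comparison known. By percentile among all genes tested, 4 of the 9 had EB above and 4 had EB below, and the same held with TPM of nuclear genes only. On both scales the genes with EB below were ASS1, GOT2, ALDH18A1 and CPS1, and GLUL overlapped. The shares of all genes with these patterns were not counted on those scales, so these counts have no background beside them. With nuclear genes only, limma called 12.1% of all genes tested higher and 41.4% lower. The median log2 fold change was 0.42 over the 9 genes and −0.11 over all genes tested. All 9 genes passed the filter of at least 1 TPM in at least 4 libraries. Fold changes are differences of mean log2(TPM + 1), EB minus DMSO, and understate the change of genes at low levels.

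ASNS showed the largest difference. Its level was 39.8, 47.6, 38.2 and 31.1 TPM in DMSO replicates 1 to 4 and 234, 229, 252 and 216 TPM in EB replicates 1 to 4. Every EB library thus stood several times above every DMSO library, and the means of 39.2 ± 6.80 and 232.8 ± 14.9 TPM (SD, n = 4 each) differ 5.94-fold (log2 fold change 2.55, standard error 0.14). The relative spread was small with EB, with a coefficient of variation of 6.41% against 17.4% with DMSO. Among all genes tested, ASNS lay at percentiles 68.4 to 73.9 of expression in the DMSO libraries and 94.8 to 95.2 in the EB libraries. The gene (ENSG00000070669) lies on the minus strand of chromosome 7 of hg38, from 97851677 to 97872542.

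GLUL makes glutamine, a substrate of ASNS, and its transcript differed less. Substrate supply itself was not measured here. GLUL was at 27.8, 12.2, 13.6 and 6.86 TPM with DMSO and at 18.6, 21.4, 16.6 and 17.2 TPM with EB. DMSO replicate 1 lay above every EB library and the other DMSO libraries lay below all of them, so the groups overlapped (log2 fold change 0.42, standard error 0.32). GLUL was the most variable of the 9 genes among controls, its highest DMSO library being 4.06 times its lowest, against 1.29 times with EB. The log2 fold change was 0.13 without DMSO replicate 4 and 0.75 without DMSO replicate 1. The ratio of ASNS to GLUL within a library was 1.43 to 4.53 with DMSO and 10.7 to 15.2 with EB.

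The aspartate aminotransferases did not shift alike. GOT1, the cytosolic enzyme, was at 82.8, 67.5, 77.2 and 56.3 TPM with DMSO and at 135.8, 113.7, 126 and 107.9 TPM with EB. All EB libraries were above all DMSO libraries, with means of 70.9 ± 11.6 and 120.9 ± 12.5 TPM (SD, n = 4 each), a 1.70-fold difference (log2 fold change 0.77, standard error 0.15). GOT2, the mitochondrial enzyme, was at 289.9, 276, 276 and 218 TPM with DMSO and at 263, 270.5, 255 and 238 TPM with EB. The groups overlapped and the log2 fold change was −0.04 (standard error 0.13). The direction of GOT2 depended on the scaling, with 0.08 after median-ratio scaling and −0.22 with TPM of nuclear genes only, on which scale all EB libraries lay below all DMSO libraries. The median over all genes tested with nuclear genes only was −0.28. Without DMSO replicate 4 the log2 fold change of GOT2 was −0.13. The ratio of GOT1 to GOT2, which no scaling of a whole library can move, was 0.244 to 0.286 with DMSO and 0.421 to 0.517 with EB, without overlap. ASNS reached 0.137 to 0.172 of the level of GOT2 with DMSO and 0.847 to 0.987 with EB.

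Among the enzymes of proline synthesis, 1 had higher and 1 lower mean levels with EB. PYCR1, the mitochondrial pyrroline-5-carboxylate reductase of the last step, was at 58.3, 52.6, 52.3 and 46.7 TPM with DMSO and at 132, 116, 110.0 and 82.4 TPM with EB. No EB library reached down to the DMSO range, and the means were 52.5 ± 4.75 and 110.2 ± 20.8 TPM (SD, n = 4 each; log2 fold change 1.04, standard error 0.16). ALDH18A1, the synthase of the first step, was at 70.1, 76.8, 70.2 and 47.6 TPM with DMSO and at 52.4, 52.1, 44.9 and 39.2 TPM with EB. Only DMSO replicate 4 lay within the EB range (log2 fold change −0.47, standard error 0.17), and by percentile among all genes the EB libraries (73.0 to 76.3) were below all DMSO libraries (80.4 to 83.7). Within a library the ratio of PYCR1 to ALDH18A1 was 0.685 to 0.981 in the DMSO libraries and at most 2.53 in the EB libraries, each of which exceeded all DMSO libraries.

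CPS1 was the gene with the largest negative difference. CPS1, the ammonia-dependent carbamoyl phosphate synthetase of mitochondria, was at 9.02, 10.5, 8.81 and 6.09 TPM with DMSO and at 2.14, 3.54, 1.41 and 1.32 TPM with EB. All EB libraries lay below all DMSO libraries, with means of 8.59 ± 1.82 and 2.1 ± 1.03 TPM (SD, n = 4 each), and the DMSO mean was 4.08 times the EB mean (log2 fold change −1.66, standard error 0.23). At these low levels the fold change depends on the pseudocount and was −2.06 with 0.1 in place of 1. The gene (ENSG00000021826) spans 210477682 to 210679107 on the plus strand of chromosome 2 of hg38. ASS1, argininosuccinate synthetase, was at 28.0, 30.4, 24.8 and 19.7 TPM with DMSO and at 17.2, 20.2, 17.7 and 18.7 TPM with EB, so that only EB replicate 2 and DMSO replicate 4 crossed (log2 fold change −0.44, standard error 0.15). The ratio of ASS1 to ASL, the next enzyme of the cycle, was 0.386 to 0.499 with DMSO and 0.223 to 0.320 with EB. ASS1 has processed pseudogenes elsewhere in the genome, and how reads matching several places were counted is not given in the sources used here.

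GPT2, the mitochondrial alanine aminotransferase, was at 24.7, 23.9, 21.1 and 13.6 TPM with DMSO and at 35.7, 33.4, 33.6 and 25.1 TPM with EB. The lowest EB library exceeded the highest DMSO library only narrowly, and the means of 20.8 ± 5.06 and 31.9 ± 4.66 TPM (SD, n = 4 each) differ 1.53-fold (log2 fold change 0.62, standard error 0.20). Its cytosolic counterpart GPT fell from 2.48 ± 0.70 to 1.03 ± 0.288 TPM (SD, n = 4 each; log2 fold change −0.77, limma adjusted p = 0.00843). The ratio of GPT2 to GPT was 7.53 to 8.93 with DMSO and 26.8 to 39.0 with EB.

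**Figure D2:**
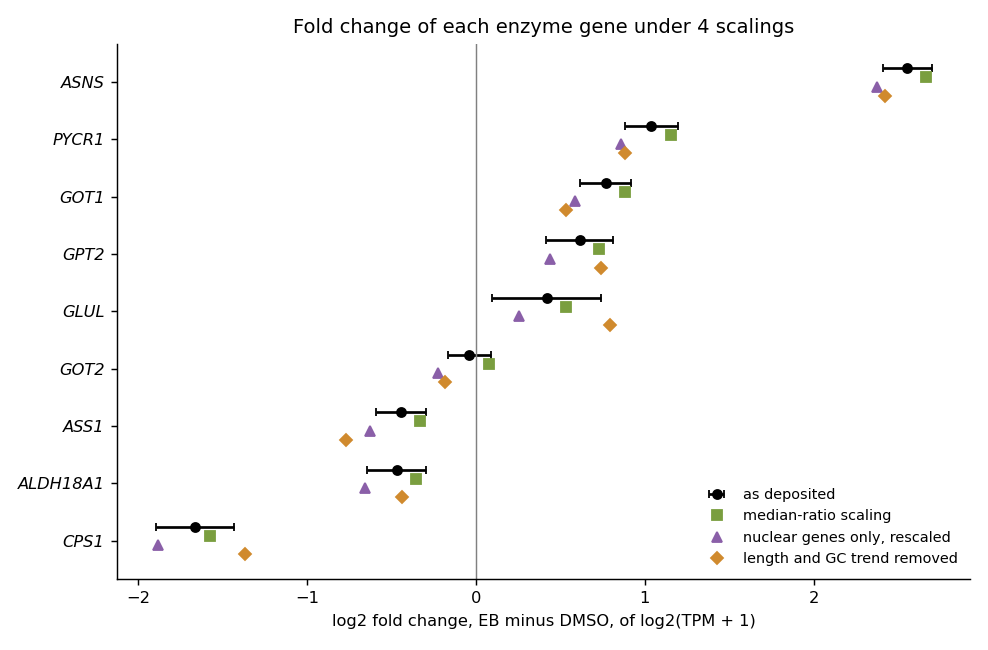
Log2 fold change (EB minus DMSO, horizontal axis) of the 9 enzyme genes with TPM as deposited (black, bar for the limma standard error), after median-ratio scaling (green), with TPM of nuclear genes only (purple) and after removal of the length and GC trend (orange). GOT2 alone changes sign among these scalings, between −0.22 and 0.08, whereas ASNS stays between 2.38 and 2.67.

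Across the whole table fold changes declined with transcript length, from a median of 0.41 in the class of the shortest nuclear genes (276 to 1225 nucleotides, 1 of 10 classes of equal number) to −0.54 in that of the longest. The 9 genes were therefore set beside genes of like length. ASNS, GOT2 and PYCR1, with canonical transcripts of 2385, 2421 and 2269 nucleotides, fall in a class whose median was 0.04. CPS1 (5760 nucleotides) falls in a class with a median of −0.45, and its log2 fold change was −1.36 once the trend on length and GC content had been removed from each library. ASS1 has the shortest transcript, 1532 nucleotides, and its class had a median of 0.24, opposite in sign to ASS1. With the trend removed ASS1 stood at −0.77 and ALDH18A1 at −0.44. GLUL has the longest transcript, 7554 nucleotides, in the class with the median of −0.54, and stood at 0.79 with the trend removed. ASNS (2.42), PYCR1 (0.88), GPT2 (0.74) and GOT1 (0.54) stayed above 0.

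**Figure D3:**
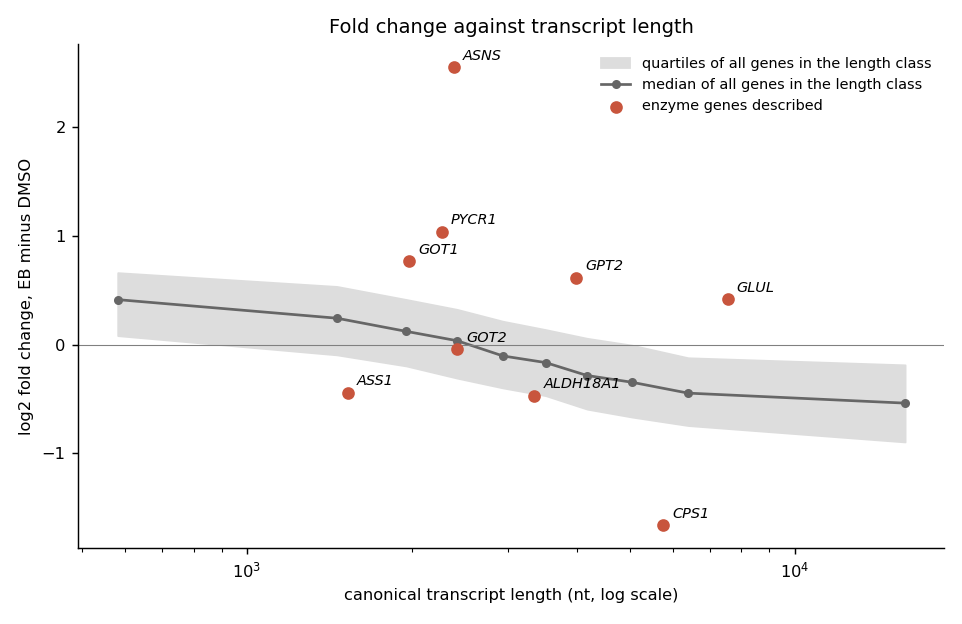
Log2 fold change (EB minus DMSO, vertical axis) against canonical transcript length (horizontal axis, log scale) for the 9 enzyme genes (red) and for 10 length classes of all nuclear genes tested (grey line for medians, band for quartiles). ASNS, PYCR1, GOT1, GPT2 and GLUL lie above the band, CPS1 and ASS1 below it.

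To place the 9 enzymes in their pathways, 68 other enzymes and carriers of the same pathways were listed by function, and 51 of them were abundant enough to be tested with limma on log2(TPM + 1). At an adjusted p under 0.05 over all genes, 7 of the 51 (13.7%) were higher and 8 (15.7%) lower with EB, beside 15.2% and 25.1% of all genes tested. Their median log2 fold change was −0.03. The study names a p under 0.05 (taken here without adjustment) and a change over 1.5 on the log2 scale (taken in either direction). With these thresholds no gene of these lists was higher (0.537% of all genes tested) and 1, PRODH, was lower (1.54%). They called 63 higher and 181 lower of all 11725 genes tested here. The fold threshold depends on the pseudocount for low genes. ABAT (−1.49) and BCAT1 (1.24) fell short of it with 1 and stood at −2.30 and 1.67 with 0.1. The paper reports more upregulated than downregulated genes, so its calls were not reproduced. It does not state which values or scaling limma was given, so its input may differ from the log2(TPM + 1) used here. Non-overlapping groups were seen in 8 of the 51 genes with EB above and 8 with EB below, 15.7% each, beside 16.6% and 20.3% of all genes tested. The balance moved with the scaling, to 15 higher and 9 lower with median-ratio scaling, 13 and 7 with quantile normalization, and 4 and 17 with nuclear genes only. Of all genes tested, 25.9% were higher and 26.3% lower with median-ratio scaling, 23.8% and 23.5% with quantile normalization, and 12.1% and 41.4% with nuclear genes only. The median log2 fold change of all genes tested was −0.01, 0.02 and −0.28 under these scalings. Without DMSO replicate 4, the number of lower genes was 16 (37% of all genes tested), and without DMSO replicate 2 it was 5 (17.8% of all). The number of higher genes was 4 without DMSO replicate 3 or EB replicate 1 (12% and 11.2% of all genes tested), and 3 without EB replicate 2 or EB replicate 3 (12.3% and 10.8%). The counts of single lists given next rest on few genes and stand beside the same 15.2% higher and 25.1% lower of all genes tested.

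On the proline list 2 of 6 genes tested (33.3%) were lower, beside 25.1% of all genes, and none higher. PRODH, proline dehydrogenase, which opens proline breakdown in mitochondria, was at 8.31, 8.37, 8.49 and 5.89 TPM with DMSO and at 0.337, 0.235, 0.26 and 0.208 TPM with EB. It fell by 2.79 on the log2 scale (standard error 0.14, limma adjusted p = 8.13e-06), the largest change among the 51 genes, and with EB below 1 TPM its size depends on the pseudocount (−4.45 with 0.1). PRODH passed the filter of 1 TPM in 4 libraries only through its DMSO libraries. Without the filter its limma adjusted p was 4.7e-05. OAT, ornithine aminotransferase, which links ornithine to the proline precursor, fell from 139 ± 21.8 to 94.1 ± 12.2 TPM (SD, n = 4 each; log2 fold change −0.56, limma adjusted p = 0.0187). OAT missed the threshold without DMSO replicate 1, 2 or 3 or EB replicate 4, with adjusted p-values up to 0.0524. ALDH4A1, the second enzyme of proline breakdown, was not past the threshold (log2 fold change −0.45, 95% interval −1.11 to 0.21), but without DMSO replicate 4 its log2 fold change was −0.76 (limma adjusted p = 0.00902). The reductase PYCR3 (0.72, 95% interval 0.07 to 1.37, limma adjusted p = 0.0725) did not pass either. It passed under 5 alternatives, among them median-ratio scaling (0.83, limma adjusted p = 0.0122) and the fit without DMSO replicate 2 (0.91, limma adjusted p = 0.0418). The ratio of PYCR1 to PRODH was 6.16 to 7.94 with DMSO and 393 to 494 with EB.

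**Figure D4:**
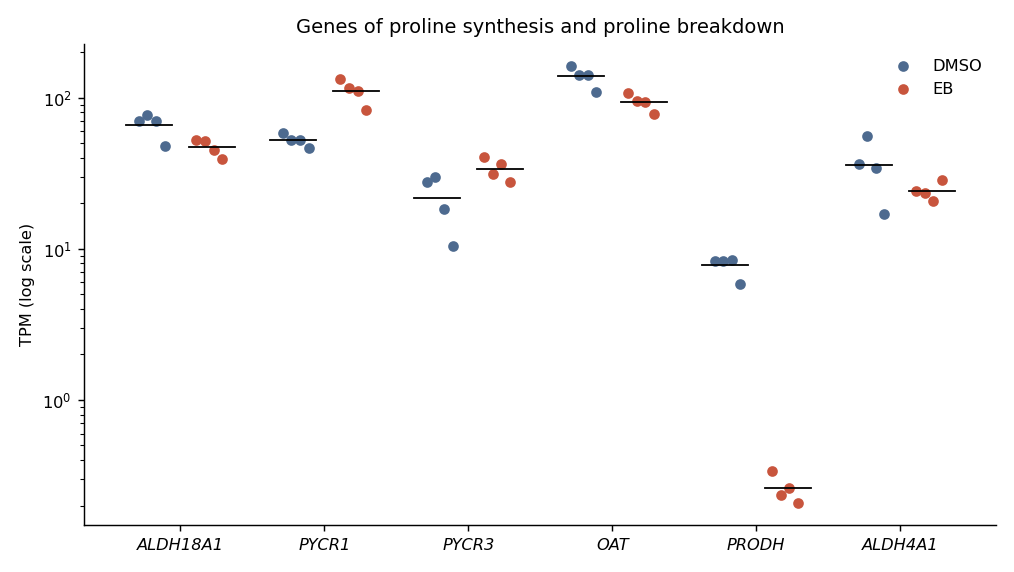
TPM (vertical axis, log scale) of genes of proline synthesis (ALDH18A1, PYCR1, PYCR3), of OAT and of proline breakdown (PRODH, ALDH4A1) in each DMSO (blue) and EB (red) library, with black lines for the group means. PRODH separates most, with 5.89 to 8.49 TPM in the DMSO libraries and 0.208 to 0.337 in the EB libraries.

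On the asparagine and aspartate list 1 of 9 genes tested (11.1%) was higher, beside 15.2% of all genes, and none lower. NIT2, an amidase that acts on the keto acids left by glutamine and asparagine transamination, rose from 12.02 ± 2.18 to 25.2 ± 2.24 TPM (SD, n = 4 each; log2 fold change 1.02, limma adjusted p = 0.000889). The asparagine-hydrolysing ASRGL1 stood at 0.30 (95% interval −0.12 to 0.73), and passed with quantile normalization alone among the alternatives (0.57, limma adjusted p = 0.0364). ASNSD1, which has a region related to ASNS, was at 0.08 (interval −0.36 to 0.52). The asparaginase ASPG reached at most 0.016 TPM and was not tested. Of the shuttle enzymes and mitochondrial carriers, 2 of 8 (25%) were lower, beside 25.1% of all genes, and none higher. These were the glutamate carriers SLC25A22, from 52.8 ± 13.3 to 25.1 ± 6.99 TPM (SD, n = 4 each; log2 fold change −1.05, limma adjusted p = 0.0101), and SLC25A18, which was near 1 TPM (−0.53, limma adjusted p = 0.0165). SLC25A18 missed the threshold with quantile normalization (−0.30) and without DMSO replicate 2. Like PRODH, it passed the filter only through its DMSO libraries.

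On the glutamine and glutamate list 4 of 20 genes tested were higher and 4 lower (20% each), beside 15.2% and 25.1% of all genes. BCAT1, the cytosolic aminotransferase of branched-chain amino acids, rose from 1.57 ± 0.592 to 4.96 ± 0.435 TPM (SD, n = 4 each; log2 fold change 1.24, limma adjusted p = 0.000755). CTPS1, which uses glutamine to make CTP, rose (0.54, limma adjusted p = 0.0318) while its paralog CTPS2 fell (−0.57, limma adjusted p = 0.00553). CTPS1 lost its call with the length and GC trend removed (0.48, limma adjusted p = 0.0681) and without DMSO replicate 3 or EB replicate 1, 2 or 3. The other genes that rose were the transaminases KYAT3 (0.50, limma adjusted p = 0.0381) and AADAT (0.45, limma adjusted p = 0.0301). Both lost their calls with nuclear genes only (limma adjusted p = 0.153 and 0.145) and with the length and GC trend removed (0.314 and 0.149). KYAT3 also lost it without a filter and without DMSO replicate 2 or 3 or any EB replicate, and AADAT without DMSO replicate 1 or 2 or EB replicate 2 or 3. Beside GPT and CTPS2, the genes that fell were both enzymes of GABA breakdown, ABAT, from 3.95 ± 1.40 to 0.743 ± 0.371 TPM (SD, n = 4 each; −1.49, limma adjusted p = 0.00109), and ALDH5A1 (−0.92, limma adjusted p = 0.0315). ALDH5A1 lost its call without a filter, with quantile normalization (limma adjusted p = 0.0952), with the length and GC trend removed and without DMSO replicate 2 or 3 or EB replicate 1, 3 or 4. GLUD1, glutamate dehydrogenase, was at −0.28 (95% interval −0.67 to 0.10). It passed with quantile normalization (−0.42), with nuclear genes only (−0.47) and without DMSO replicate 4 (−0.41).

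On the arginine and urea cycle list 2 of 8 genes tested (25%) were higher, beside 15.2% of all genes, and none lower. ARG2, the mitochondrial arginase, rose from 2.97 ± 0.423 to 5.41 ± 0.678 TPM (SD, n = 4 each; log2 fold change 0.69, limma adjusted p = 0.0035), and DDAH1, which releases citrulline from methylated arginine, rose by 0.36 on the log2 scale (limma adjusted p = 0.0415). DDAH1 lost its call with nuclear genes only (0.18, limma adjusted p = 0.287) and without any library other than DMSO replicate 4, with adjusted p-values up to 0.107. ASL was at 0.26 (95% interval −0.11 to 0.63) and passed with median-ratio scaling (0.37, limma adjusted p = 0.0178). NAGS, whose product activates CPS1, was near 1.5 TPM in both groups (log2 fold change 0.00, interval −0.42 to 0.41), and OTC, the enzyme after CPS1 in the cycle, was listed at 0 in all libraries.

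**Figure D5:**
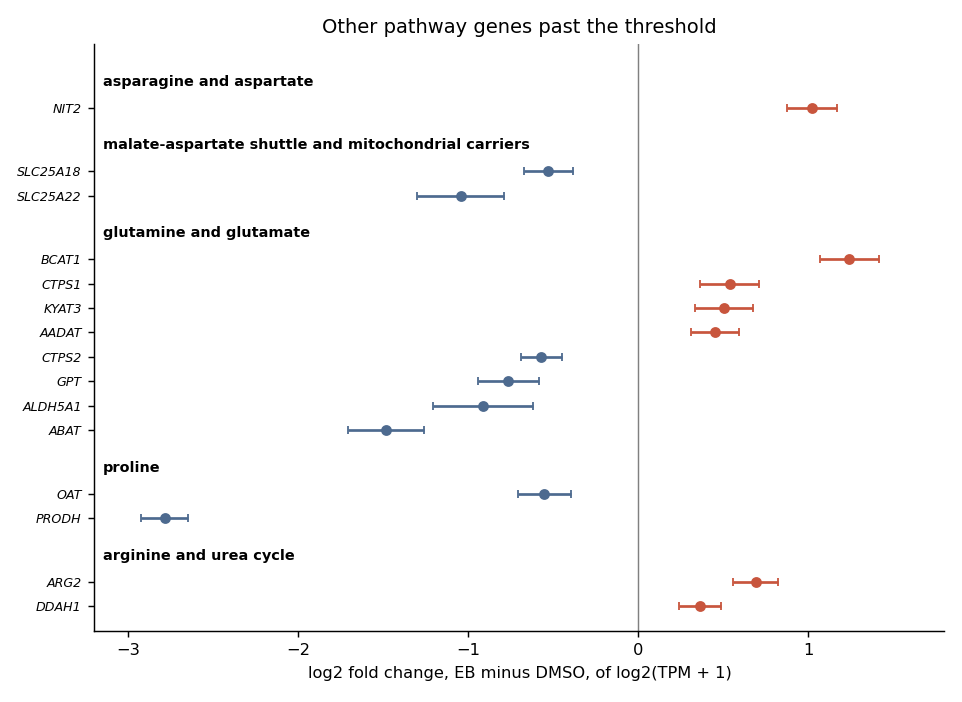
Log2 fold change (EB minus DMSO, horizontal axis) with its limma standard error for the 7 higher (red) and 8 lower (blue) of the other pathway genes at an adjusted p under 0.05, by list. PRODH at −2.79 lies farthest from 0. PRODH and SLC25A18 passed the expression filter only through their DMSO libraries.

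The genes whose levels followed ASNS most closely over the 8 libraries, by Pearson's r of log2(TPM + 1), were SPHK1 (0.998), KRT19 (0.996) and TMEM158 (0.996), none of them an enzyme of amino acid synthesis. Those closest to CPS1 were XRN2, RABGAP1 and RNF44 (0.997 each). Among the 9 genes, r with ASNS was 0.95 for PYCR1, 0.93 for GOT1 and 0.82 for GPT2, and r with CPS1 was 0.89 for ASS1 and 0.88 for ALDH18A1. These values mostly carry the difference between the groups, which the libraries share, and are given without a test.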

How the data were processed

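The authors deposited 1 table of TPM for 20263 human Ensembl genes in 8 libraries, computed within each library. Their methods describe read trimming and mapping with the CLC Genomics Workbench and list HISAT2 and StringTie. The labels and methods name both mouse (GRCm38, mm10) and human (hg38) builds. All identifiers are human, and 20148 matched a GENCODE symbol on hg38. Columns headed C and H were read as DMSO and EB, with the replicate number of the sample title. TPM hold no counts, so read depth and counting error are unknown, and 0 columns of other samples were present. The 11725 genes that reached 1 TPM in 4 or more libraries entered limma 3.58.1 in R 4.3.3 on log2(TPM + 1), without a trend or block (prior degrees of freedom 3.88), with Benjamini-Hochberg adjustment over all of them. Length and GC content are those of GENCODE canonical transcripts, which can differ from the authors' annotation. The steps were tested on simulated data. Python 3.11.15 was used for tables (pandas 2.3.3) and plots (matplotlib 3.10.9).

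The 9 genes, the pathway lists and the alternatives were chosen with earlier results of these data known. Named genes are the 9 enzymes, fixed paralogs and opposing enzymes, the 12 other pathway genes with the largest absolute log2 fold change among those called, ATF4, and the 3 genes most like ASNS and CPS1. Some genes of that rule are not reported here. KYAT3, AADAT and DDAH1, the remaining called genes, were named after their values were seen. As alternatives, the pseudocount was 0.1, the filter was dropped or raised to 5 TPM, and the fit was repeated with median-ratio scaling, quantile normalization, nuclear genes only, removal of the length and GC trend by natural splines in each library, an intensity trend, a replicate block, each library left out, and the study's thresholds.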

Additional observations from a re-analysis of the deposited data

How the results depend on the processing

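Of the 9 enzyme genes, 8 kept the sign of their fold change under all 17 alternatives, and GOT2 turned positive with median-ratio scaling (0.076) and without DMSO replicate 1 (0.006, and −0.129 without DMSO replicate 4). Over these alternatives the log2 fold change lay between 2.38 and 2.67 for ASNS, 0.86 and 1.17 for PYCR1, 0.54 and 0.88 for GOT1, 0.43 and 0.74 for GPT2, 0.13 and 0.79 for GLUL, −0.77 and −0.33 for ASS1, −0.65 and −0.36 for ALDH18A1, and −2.06 and −1.36 for CPS1. Among the other pathway genes, 7 higher and 8 lower calls became 4 and 6 with a filter of 5 TPM, where fewer genes are tested, 15 and 9 with median-ratio scaling, 13 and 7 with quantile normalization, 4 and 17 with nuclear genes only, and 0 and 1 with the study's thresholds. Of all genes tested, 17.1% were higher and 23.3% lower with the 5 TPM filter, 25.9% and 26.3% with median-ratio scaling, 23.8% and 23.5% with quantile normalization, 12.1% and 41.4% with nuclear genes only, and 0.537% and 1.54% with the study's thresholds. With single libraries left out the counts ranged from 3 to 7 higher and 5 to 16 lower, beside 10.8% to 15.6% and 17.7% to 37% of all genes. The cause of these shifts was not tested. Same-numbered libraries correlated in their deviations from the group means by 0.18, 0.05, −0.09 and 0.28. The EB library with the highest correlation had the same number for DMSO replicates 1 and 4, and another number for DMSO replicates 2 and 3. The mitochondrial share of TPM, however, ranked the replicate numbers alike in both groups, in the order 1, 3, 2 and 4 from the lowest. DMSO replicates 3 and 2 were close, at 21.02% and 21.12%. The labels do not say whether the numbers pair the libraries, and no block entered the main fit. A replicate block gave 9 higher and 11 lower calls (19% and 30.1% of all genes). PRODH, ABAT, BCAT1, NIT2, SLC25A22, GPT, ARG2, CTPS2 and ATF4 kept an adjusted p under 0.05 in every other fit that tested them. Among these, PRODH alone is past the study's fold threshold in the main fit. With a pseudocount of 0.1, ABAT (−2.30) and BCAT1 (1.67) are past it too. Without counts, the precision of low values such as those of CPS1 and PRODH with EB cannot be given.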
